A study of Mus musculus with 69 samples.

Results

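The 3 cells taken from the cortical plate (CP), whose titles carry the letter E, were compared gene by gene with the 7 cells from the ventricular and subventricular zones (VZ/SVZ) whose titles carry the letter D. These are 10 of the 69 single cells analysed here, all from the dorsolateral cerebral wall of CD1 mouse embryos at embryonic day 14, with no treatment or allele named. Cells were dissociated with trypsin, picked at random with a glass capillary, lysed with bacterial spike RNAs, amplified and hybridised to Affymetrix arrays. Region was taken from the source label; for E-12B, E-19F and E-19J the description label disagrees and gives VZ/SVZ. The labels do not say what the letters mean or whether they were assigned from expression, and no label names an embryo or litter. Each group therefore counts as 1 sample, no test was possible, and every difference below describes these 10 cells.

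In the developing cortex, radial glia in the VZ and intermediate progenitors in the SVZ give rise to excitatory neurons. Newborn neurons leave the germinal zones, migrate outward along radial glia and settle in the plate, where they grow axons and take on a layer identity. Deep-layer neurons, many of which project to targets below the cortex, are born first, and upper-layer neurons, which mostly project within the cortex, are born later. Bcl11b (also called Ctip2), Fezf2, Tbr1 and Sox5 are transcription factors known for deep-layer and subplate identity, while Cux1, Cux2 and POU factors of class III are known for upper layers and also for neurons on their way to them. The comparison asks how neurons in the plate differ from neurons that still lie in the germinal zones.

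All 10 cells had the expression of neurons. Tubb3, a neuronal tubulin, read 11.31, 11.01 and 11.55 in the CP cells E-12B, E-19F and E-19J on the log2 intensity scale, against a lowest, median and highest value of 10.67, 11.59 and 11.79 in letter D cells. For Stmn2, which binds tubulin in growth cones, the values were 11.91, 11.61 and 12.23 in CP cells and 10.72, 11.25 and 12.27 in letter D cells. Dcx (doublecortin), needed for neuronal migration, had 11.42, 9.83 and 10.36 in CP cells and 8.73, 11.33 and 11.56 in letter D cells. The groups overlapped for all of these genes, and Neurod6, a bHLH factor of cortical excitatory neurons, overlapped as well, at 10.57, 10.14 and 11.16 in CP cells and 10.03, 11.02 and 11.56 in letter D cells. Of 26 pan-neuronal genes measured, 20 to 22 were above the detection floor defined below in a CP cell and 18 to 21 in a letter D cell. Not every neuronal gene was seen: Rbfox3 was above that floor in 0 of 3 CP and 4 of 7 letter D cells.

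Many progenitor genes were at the floor in both groups. The floor was an intensity of 58.7, or 5.88 on the log2 scale, the dip between the lower and upper modes of all values, and lower values were set to it. Pax6 and Sox2, factors of radial glia, Eomes (Tbr2) of intermediate progenitors, and Mki67, a marker of dividing cells, were at the floor in all 3 CP and all 7 letter D cells. Others were seen in some cells, here chosen after their values were seen. Vim, the intermediate filament vimentin, read 9.44 and 8.002 in E-12B and E-19F, was at the floor in E-19J, and in letter D cells was above it in 2 of 7, up to 9.15. Ptprz1, a receptor phosphatase of radial glia, read 10.94, 7.86 and 9.86 in CP cells and was above the floor in 4 of 7 letter D cells, up to 10.06. Fabp7, a fatty acid binding protein of radial glia, was at the floor in all CP cells and above it in 2 of 7 letter D cells, with 9.01 in D-8K. Of 22 mitotic (G2/M) genes measured, at most 1 was above the floor in any of the 10 cells, as Cdc20 was in D-8K at 9.94. Of 23 S phase genes, between 3 and 6 were above it in a CP cell and between 2 and 12 in a letter D cell, with the most in D-18L (12) and D-8K (9). Of 30 apical progenitor genes, between 4 and 6 were above it in a CP cell and between 3 and 5 in a letter D cell. Of the 73 markers measured of interneurons, Cajal-Retzius cells, endothelium, microglia, red cells, pericytes or meninges, and glia, 0 were above the floor in any CP cell and 0 in any letter D cell. The letter D cells thus had neuronal markers, although they came from the germinal zones.

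Sex-linked transcripts differed between the groups. Xist, the noncoding RNA of the inactive X chromosome, read 11.70, 9.87 and 11.93 in CP cells, and in letter D cells it was at the floor in all but D-9B, where it read 12.15. A Y-linked gene, Eif2s3y or Kdm5d, was above the floor in 0 of 3 CP cells and in 4 of 7 letter D cells. The letter D cells therefore came from at least 1 male and 1 female embryo, while all 3 CP cells had Xist and no Y-linked transcript. The number in the title, whose meaning is not given, was 12 or 19 in CP cells and 8, 9 or 18 in letter D cells. Region, letter, title number and embryo cannot be told apart. Of the 5917 genes tested, 186 were X-linked, of which 4 were higher and 4 lower in CP by at least 2 log2 units. Over all genes tested, the shares were 2.03% and 4.31%. None of the 186 met both criteria given below, which 0.727% (higher) and 0.761% (lower) of all genes tested met. The part that sex plays in the differences was not tested.

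The gene counts overlapped between groups, and 2 of the 3 CP cells were dimmer than every letter D cell. E-12B, E-19F and E-19J had 4637, 3801 and 3626 genes above the floor, against a lowest, median and highest of 3658, 4064 and 4735 in letter D cells. The mean intensity after trimming 2% at either end was 76.1, 50.1 and 55.6 in the CP cells and between 64.3 and 94.1 in letter D cells. The lys spike RNA, added at 1000 copies per cell, averaged 12.41 ± 0.12 in CP and 12.70 ± 0.17 in letter D cells (SD over 3 and 7 cells), and the phe spike, added at 20 copies, averaged 8.50 ± 0.90 in CP and 9.68 ± 1.09 in letter D cells. Over the 5917 genes tested, those above the floor in at least 3 of the 10 cells, the median difference in mean log2 intensity, CP minus letter D, was −0.25. Scaling every cell to the same trimmed mean brought it to −0.03. The part that signal strength plays in single differences was not tested, and list medians below are to be read against −0.25.

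A gene was counted where its group means differed by at least 2 log2 units, a 4-fold difference, and no CP cell overlapped any letter D cell. This rule of size was met by 43 genes higher in CP, 0.727% of those tested, and by 45 genes lower in CP, 0.761%. Size alone was met by 120 genes higher (2.03%) and 255 lower (4.31%), and absence of overlap alone by 66 genes above (1.12%) and 87 below (1.47%). How many genes meet such a rule among so few cells without any difference between the regions is not given here, so these are not counts of changed genes. A gene seen in all 3 CP cells and in no letter D cell was tested only because it differed, which holds for 27 of the genes tested and for 16 of the 43. In the other direction, a gene at the floor in all 3 CP cells was tested only through letter D cells and had to be lower in CP, which holds for 13 of the 45.

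The split between directions depended on scaling. Genes higher in CP made up 48.9% of those that met it with the values as deposited. Their share was 69.3% with a common trimmed mean (79 higher and 35 lower), 68.6% with quantile normalization (83 and 38) and 68.6% with scaling to the lys spike (72 and 33). Of the 43 genes higher in CP, 42 met the rule under all of these scalings, as did 29 of the 45 lower. With the mean of all probe sets of a gene in place of its brightest, 17 of the 43 and 22 of the 45 still met it. Leaving out E-12B gave 44 genes higher and 125 lower in CP, E-19F 95 and 66, E-19J 61 and 74, and the letter D cell D-18C 51 and 71. Absence of overlap is easier to meet with fewer cells, but the direction that rose most varied with the CP cell left out. The reasons were not tested. Of the 43 genes higher in CP, 23, 25 and 25 still met the rule without E-12B, E-19F and E-19J. The 16 genes seen in no letter D cell could not, because they then fail the filter of 3 cells. In every one of the 10 leave-outs, 19 of the 43 and 33 of the 45 met the rule.

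**Figure D1:**
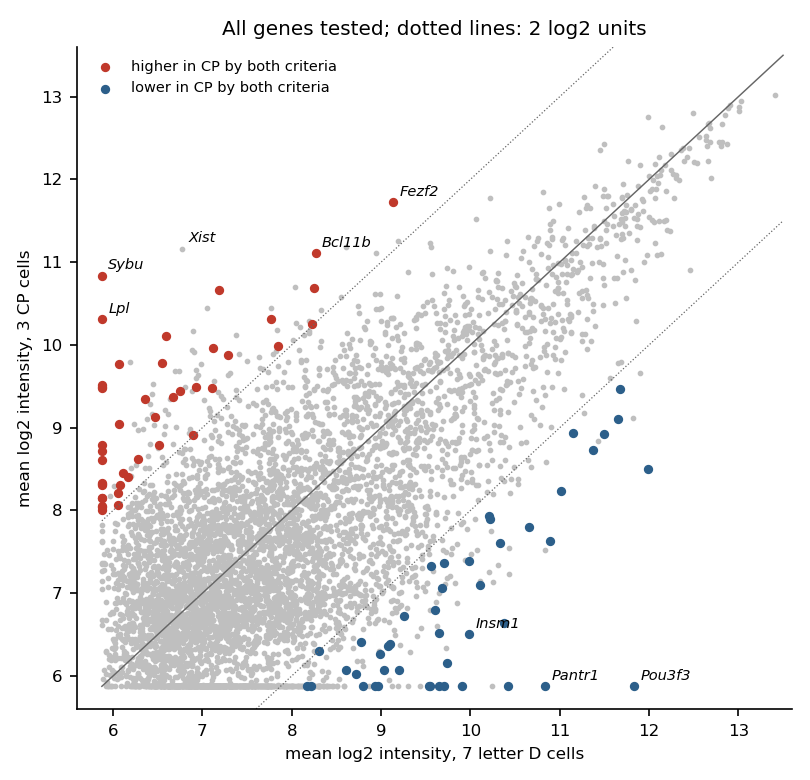
Mean log2 intensity of each of the 5917 genes tested in 7 letter D cells (x axis) and 3 CP cells (y axis). Red points are the 43 genes higher and blue points the 45 genes lower in CP by both criteria, grey points all other genes, the solid line marks equal means and the dotted lines a difference of 2 log2 units, and Xist lies past the upper line but is grey because 1 letter D cell had it.

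Deep-layer factors were higher in CP cells. Fezf2, which directs neurons to subcerebral targets, read 11.88, 11.28 and 12.01 in CP cells, against 8.04, 9.14 and 10.45 as the lowest, median and highest letter D values. It was present in all 10 cells, and every CP cell lay above every letter D cell, with a difference of 2.59 (11.72 ± 0.39 against 9.14 ± 0.90). Bcl11b, which acts downstream of Fezf2 in axon extension, read 10.86, 10.90 and 11.58 in CP cells. In letter D cells it ranged from the floor to 10.42 with a median of 9.22, and 5 of 7 were above the floor. The difference for Bcl11b was 2.84, and 4 letter D cells lay between 9.22 and 10.42 while the others were at 6.61 or at the floor. With the mean of its 4 probe sets the difference was 1.57, below the size rule.

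Tbr1 and Sox5 differed by less than the size rule. Tbr1, the T-box factor of early cortical neurons, read 10.44, 9.65 and 9.84 in CP cells and 7.19, 8.13 and 9.97 in letter D cells, a difference of 1.66 with overlap at the top of the letter D range. Sox5, which controls the order in which deep-layer neurons arise, read 10.54, 10.59 and 11.44 in CP cells and 8.62, 9.94 and 10.23 in letter D cells, without overlap but with a difference of only 1.29. Hs3st4, a heparan sulfate sulfotransferase, read 10.65, 8.85 and 8.94 in CP cells, was at the floor in all 7 letter D cells and was thus at least 12.2-fold higher in CP. Otx1, a homeobox factor, was weak in CP cells at 7.02, 6.23 and 8.81 and at the floor in all letter D cells, at least 2.79-fold higher, although 50 of the 59 cells of other letters held it. Pcp4, a calmodulin regulator of corticofugal neurons, ran the other way: it was at the floor in all 3 CP cells and above it in 4 of 7 letter D cells, with a highest value of 11.29.

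Over the deep-layer and subplate list, 13 of 25 measured members were tested and the median difference was 1.29, against −0.25 over all genes tested. Of the 13, 3 (23.1%) were higher by size and 5 lay above every letter D cell, while 1 (7.69%) was lower by size. Over all genes tested, 2.03% were higher by size, 1.12% lay above every letter D cell and 4.31% were lower by size. Hs3st4 and Otx1 were tested only because all 3 CP cells had them, so they had to differ; they supply 1 of the 3 and 2 of the 5 and raise the median, which is therefore only a description. With 1 CP cell left out the list median ranged down to 0.54, the value without E-19J.

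Upper-layer and class III POU genes were lower in CP cells, several of them not seen there at all. Pou3f3 (also called Brn1), a class III POU factor, was at the floor in all 3 CP cells, while its lowest, median and highest letter D values were 11.08, 11.71 and 12.52. It was at least 62.1-fold lower in CP, the largest difference of the comparison among genes tested. Pantr1, a noncoding RNA gene beside Pou3f3, was at the floor in all CP cells and read 10.22, 10.74 and 11.59 in letter D cells, at least 31.1-fold lower in CP. Pou3f1 (also called SCIP or Oct6), another class III POU factor, was at the floor in all CP cells and at 8.36, 9.57 and 10.49 in letter D cells, at least 12.7-fold lower. With the mean of its 2 probe sets the difference for Pou3f1 was −1.83, below the size rule. Limch1, an actomyosin regulator on the upper-layer list, was at least 23.3-fold lower, with letter D cells at 7.67, 10.92 and 11.75.

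These absences were shared by the 3 CP cells, but not all list members separated the groups. Lhx2, a LIM homeobox factor of cortical progenitors and upper-layer neurons, was at the floor in all 3 CP cells and above it in 6 of 7 letter D cells, and in the seventh, D-18F, it read 5.66 before flooring. Cux1 was at the floor in all CP cells and above it in 5 of 7 letter D cells, and Pou3f2 (Brn2) in 3 of 7. Ptn, a secreted growth factor, was above the floor in 6 of 7 letter D cells and in no CP cell. The difference for Ptn was −2.64, or −0.91 with the mean of its probe sets, below the size rule. Cux2 was near the floor in both groups, with a highest CP value of 6.34 and a highest letter D value of 6.59. Its difference was 0.02 from the brightest probe set and −1.12 over the mean of 3. Plxnd1, a semaphorin receptor, was the exception, at 7.18, 7.37 and 8.29 in CP cells and above the floor in 1 of 7 letter D cells.

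Of 15 upper-layer genes measured, 10 were tested, with a median difference of −2.23. Of these, 5 (50%) were lower by size and 3 did not overlap, and 0 were higher by size. Over all genes tested, 4.31% were lower by size, 1.47% lay below every letter D cell and 2.03% were higher by size. Members at the floor in all 3 CP cells, such as Pou3f3 and Lhx2, were tested only through letter D cells, so they had to be lower. They lower the median, which is therefore only a description. Each CP cell had 3 of the 15 above the floor, against 6 to 9 in a letter D cell. The same count over 25 deep-layer genes was 13, 11 and 14 in E-12B, E-19F and E-19J and between 8 and 10 in letter D cells. Taking the mean of all probe sets brought the upper-layer median to −0.91 and Pou3f3, with 2 probe sets, to −2.98.

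**Figure D2:**
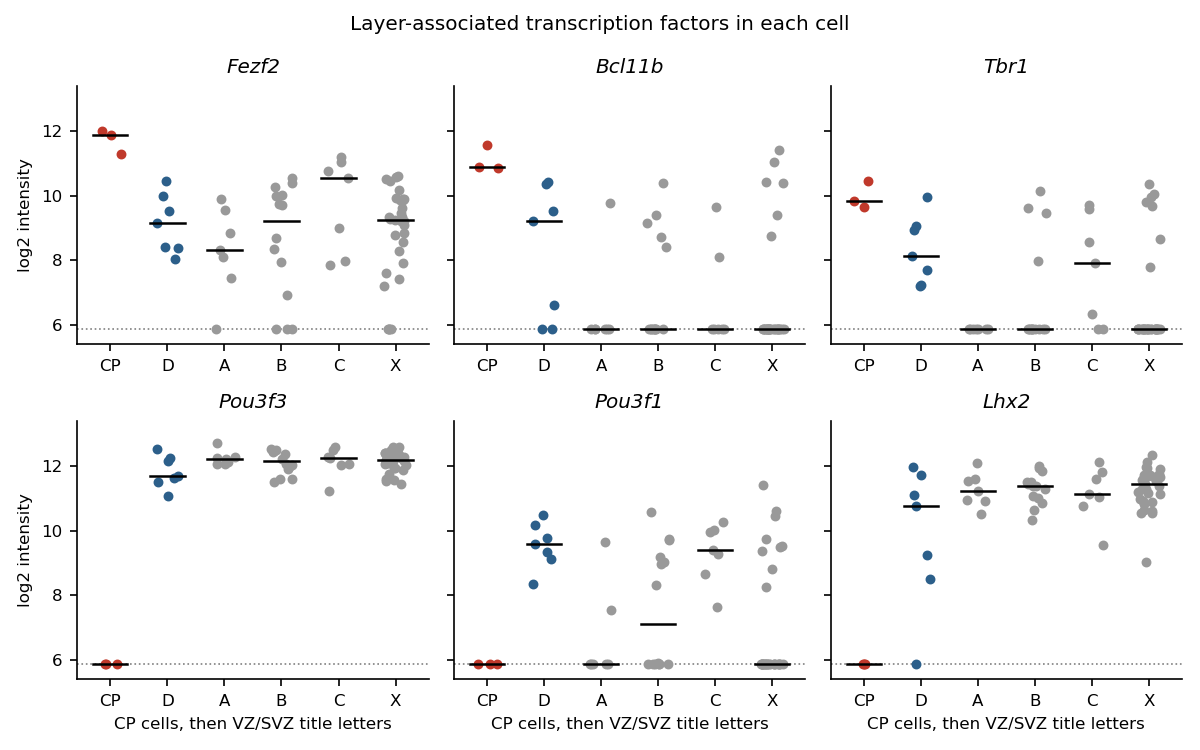
Log2 intensity (y axis) of 6 layer-associated factors in each cell, with CP cells in red, letter D cells in blue and the other VZ/SVZ title letters in grey, bars at the group median and the floor of 5.88 dotted. Fezf2 and Bcl11b are highest in the CP cells, whereas Pou3f3, Pou3f1 and Lhx2 sit at the floor in all 3 of them, and Tbr1 overlaps.

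Pou3f3 and Pantr1 are neighbours on chromosome 1, where in RefSeq's GRCm38.p6 annotation Pou3f3 starts 943 bases after the end of Pantr1. The promoter of Pou3f3 is shown because the pair gave the largest differences among genes lower in CP, next to that of Fezf2, a deep-layer factor higher in CP. Both are RefSeq sequences of 300 bases around a gene start, chr1:42695518-42695817 on the plus strand and chr14:12345816-12346115 on the minus strand, with CCAAT on either strand in capitals.
Pou3f3: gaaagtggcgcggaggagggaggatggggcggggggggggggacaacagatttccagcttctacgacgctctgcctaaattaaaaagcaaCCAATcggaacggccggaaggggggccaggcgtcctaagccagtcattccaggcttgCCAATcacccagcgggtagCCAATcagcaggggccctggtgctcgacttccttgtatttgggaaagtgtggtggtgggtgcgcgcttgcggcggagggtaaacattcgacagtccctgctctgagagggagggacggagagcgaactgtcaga
Fezf2: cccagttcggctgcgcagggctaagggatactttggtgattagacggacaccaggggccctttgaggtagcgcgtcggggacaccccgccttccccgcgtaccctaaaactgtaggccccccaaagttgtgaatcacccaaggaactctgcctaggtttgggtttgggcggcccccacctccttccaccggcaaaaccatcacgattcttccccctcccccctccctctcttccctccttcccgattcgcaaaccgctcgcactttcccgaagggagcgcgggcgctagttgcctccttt
The Pou3f3 promoter held 3 copies of CCAAT and that of Fezf2 held 0, and 3.37% of all 32851 RefSeq promoters of this length held 3 or more. At least 1 CCAAT was in the promoter of 9 of 31 genes higher in CP, 20 of 33 lower in CP and 42.8% of the 4878 genes tested that had a promoter in the table. The octamer ATGCAAAT, a motif bound by POU factors, searched on both strands, was in the promoter of 0 of these 31 genes, 0 of these 33 and 1.39% of the 4878. The motifs were chosen with the expression values known, and a match describes the sequence only.

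Genes of newborn neurons were lower in CP cells for some members only. Insm1, a zinc finger factor of cells leaving the cycle, read 7.13 and 6.51 in E-12B and E-19F and was at the floor in E-19J, against 8.53, 10.29 and 11.25 in letter D cells. The difference was −3.48, and no CP cell reached the letter D range. Unc5d, a netrin receptor of multipolar and upper-layer neurons, was at the floor in all CP cells and at 7.17, 8.88 and 10.88 in letter D cells, at least 7.57-fold lower in CP. Rnd2, a small GTPase of the multipolar stage, differed by −2.59 but overlapped, since E-19J read 11.01.

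Sox11, a factor of young neurons, was present in all cells and differed by −0.68, at 11.63, 11.26 and 11.64 in CP cells and 12.06, 12.17 and 12.29 in letter D cells, without overlap. Neurog2, a proneural factor, was above the floor in 0 of 3 CP and 3 of 7 letter D cells, and Neurod1 in 0 of 3 and 2 of 7. Over the list of newborn neuron and intermediate progenitor genes, 19 of 30 were tested. Of these, 4 were lower by size (21.1%, against 4.31% of all genes tested) and 0 higher. Members at the floor in all 3 CP cells, such as Unc5d and Neurog2, were tested only through letter D cells, so they had to be lower. The share lower and the list median of −0.59 are therefore only descriptions. That median was 0.00 with the difference of group medians in place of means.

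Axon and guidance genes went both ways. Dcc, a netrin receptor that steers growing axons, read 10.41, 9.72 and 9.76 in CP cells and 5.88, 7.61 and 8.97 in letter D cells, higher in CP by 2.84, or by 1.60 with the mean of its probe sets, below the size rule. Sema6d, a transmembrane semaphorin, was at the floor in all CP cells and above it in 6 of 7 letter D cells, up to 12.75, and Nrp1, the neuropilin receptor, showed the same pattern up to 10.27. The difference for Sema6d was −4.37, but over the alternatives given at the end it ranged from −9.14 to −1.09, the latter below the size rule. Cdh4, a cadherin, was at the floor in E-12B and E-19F but at 10.89 in E-19J, within the letter D range of 8.83 to 11.61. Of 36 members tested of the axon guidance and adhesion list, 4 (11.1%) were higher and 6 (16.7%) lower by size, and the median was −0.43. Over all genes tested, 2.03% were higher and 4.31% lower. Members at the floor in all 3 CP cells, such as Sema6d and Nrp1, were tested only through letter D cells, so they had to be lower. Any member seen only in CP cells had to be higher, so these shares are only descriptions. Of the axon growth and cytoskeleton list, 35 were tested with a median of −0.13. Tubb2a, a tubulin, was higher in CP by 2.55 without overlap (1.27 with the mean of its probe sets, below the size rule). Dpysl5, a CRMP family member, differed by −2.57 with overlap (−1.28 with the mean of its probe sets, also below it).

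Radial migration genes had a median of −0.40 over 29 tested, with 0 higher and 3 lower by size. The 3 make up 10.3% of those tested, against 4.31% lower over all genes tested. Fyn, a kinase of the Reelin pathway, read 8.30, 8.70 and 6.41 in CP cells and 10.17, 10.63 and 11.13 in letter D cells, a difference of −2.85 without overlap. With the mean of its probe sets it was −1.52, below the size rule. Cdk5, a kinase needed for migration, was at the floor in all CP cells and above it in 5 of 7 letter D cells. It was thus tested only through letter D cells and had to be lower. Its difference was −2.19, or −0.64 with the mean of its probe sets, below the size rule.

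Synaptic genes also included members in both directions. Lrfn5, a synaptic adhesion molecule, read 10.24, 9.08 and 9.97 in CP cells and was above the floor in 1 of 7 letter D cells, higher in CP by 3.70. Sh3gl2, endophilin A1 of synaptic vesicle recycling, read 11.12, 11.05 and 9.81 in CP cells and 5.88, 6.75 and 8.91 in letter D cells, higher by 3.48. Cplx1, a complexin of vesicle release, read 9.83, 9.74 and 10.06 in CP cells, just above the highest letter D cell at 9.70, while the letter D median was at the floor. The difference for Cplx1 was 2.59, or 1.70 with the mean of its probe sets, below the size rule. Syt4, a synaptotagmin, ran opposite: it was at the floor in all CP cells and at 8.93, 9.37 and 10.96 in letter D cells, at least 13.7-fold lower in CP.

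Of the glutamate receptor subunits, Gria2 read 10.14, 9.24 and 10.01 in CP cells and 11.21, 11.78 and 12.14 in letter D cells, a difference of −1.88 without overlap. Gria3 differed by 2.31 in the other direction and the scaffold gene Homer1 by 2.21, both with overlap. With the mean of its probe sets Homer1 differed by 0.67, below the size rule. Of 10 postsynaptic genes tested 3 were higher and 1 lower by size, with a median of 0.58, and of 24 presynaptic genes 2 were higher and 1 lower, with a median of 0.28. Over all genes tested, 2.03% were higher and 4.31% lower by size. The presynaptic share lower by size, 4.17%, was near that. It stands for Syt4, which was tested only through letter D cells and had to be lower. Among ion channel genes, 13 of 41 measured were tested. The calcium channel subunits Cacng4 and Cacna2d1 differed by 2.70 and −2.28, both with overlap. With the mean of their probe sets the differences were 2.25 and −0.70, the latter within the size rule's limit of 2. Cabp7, a calcium-binding protein, was at least 12.4-fold higher in CP, at 10.66, 7.76 and 10.11 with all letter D cells at the floor, but the difference was 1.82 with the mean of its probe sets, below the size rule.

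The other genes with the largest differences had diverse roles. Sybu, which encodes syntabulin, a linker of kinesin to axonal cargo, read 10.77, 11.15 and 10.59 in CP cells and was at the floor in all letter D cells, at least 31.2-fold higher in CP. Lpl, lipoprotein lipase, read 10.96, 9.97 and 10.01 and was at least 21.7-fold higher. Nin, the centrosomal protein ninein, was at least 12.2-fold higher at 11.07, 8.17 and 9.22, and the sialyltransferase gene St6galnac4 at least 7.57-fold. Ndrg1, a stress- and hypoxia-induced gene, was higher by 3.52, the heat shock family member Hspa12a by 3.23, Vcan, the matrix proteoglycan versican, by 2.98, and Tm9sf2, a membrane protein, by 2.99. Ufsp2, a protease of the ubiquitin-like modifier UFM1, was at least 7.15-fold higher. With the mean of all probe sets the difference was 0.81 for Hspa12a, 0.64 for Vcan, 0.94 for Tm9sf2, 1.90 for Ndrg1 and 1.46 for St6galnac4, all below the size rule.

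Among genes lower in CP, Trp53inp2, an autophagy gene, and Rhno1, of the DNA damage checkpoint, were at the floor in all 3 CP cells and at least 16.3-fold and 14.2-fold lower. Eapp, an E2F-binding protein gene, was at least 12.7-fold lower. Trib2, a pseudokinase, read 8.16 in E-19F and the floor in the other CP cells, against 9.39, 10.43 and 11.20 in letter D cells. Cnn3, the actin-binding calponin 3, read 10.12, 9.51 and 5.88 in CP cells and 11.57, 11.89 and 12.38 in letter D cells, a difference of −3.49. The difference was −3.13 for Fgfr1, an FGF receptor, −3.27 for Elovl6, a fatty acid elongase, −3.58 for Glrx5, of mitochondrial iron-sulfur assembly, and −3.13 for the adaptor gene Shb. In none of these did a CP cell reach the lowest letter D cell. With the mean of all probe sets the difference was −1.32 for Fgfr1, −1.55 for Elovl6, −1.25 for Trib2 and −1.91 for Rhno1, all below the size rule.

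**Figure D3:**
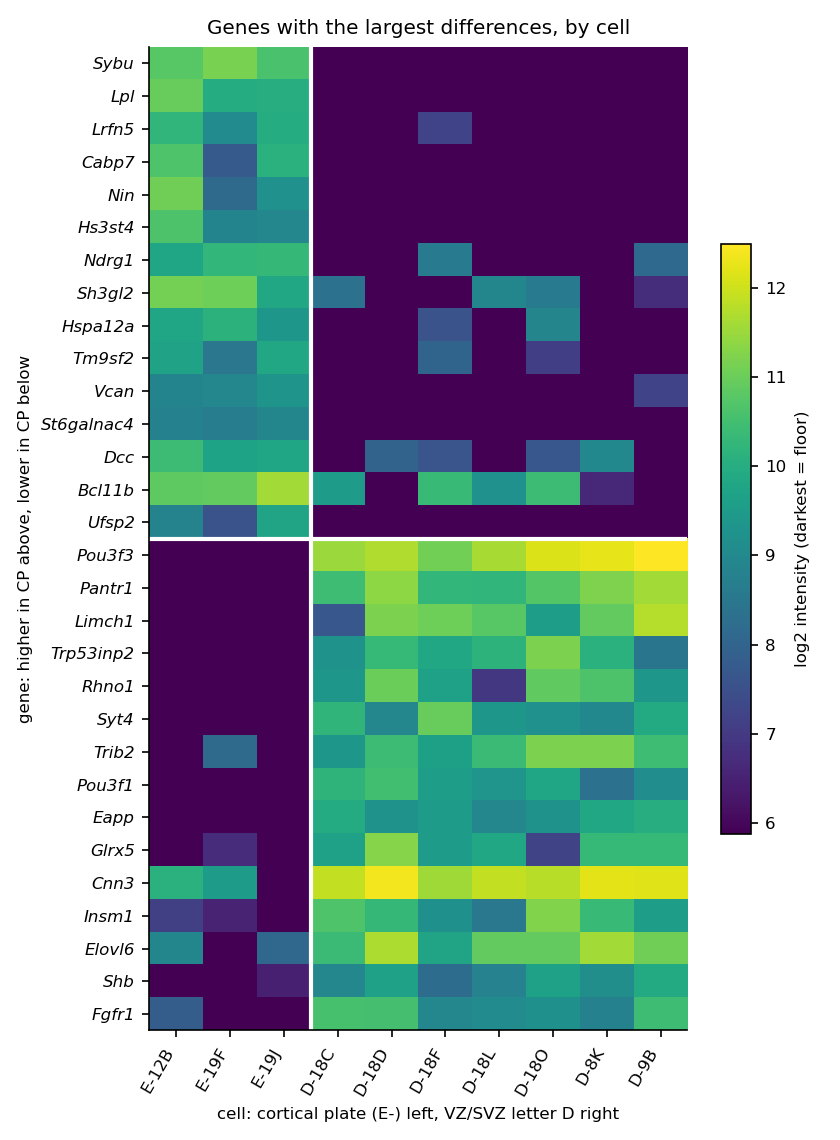
Log2 intensity of the 15 genes with the largest differences in each direction (rows, higher in CP above) in each of the 3 CP and 7 letter D cells (columns), from the floor of 5.88 in the darkest colour upward. The upper left and lower right blocks are filled in every cell, and the scattered values at the upper right are letter D cells with some signal, such as Bcl11b in 5 of 7.

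Some lists of general cell functions had medians near that of all genes, while others lay further from it. The median difference was −0.12 over 37 oxidative phosphorylation genes, −0.08 over 23 ribosomal protein genes, −0.19 over 15 housekeeping genes and −0.08 over 22 pan-neuronal genes, against −0.25 over all genes tested. Mapt, which encodes tau, was the 1 pan-neuronal gene past the size rule, higher by 2.10 with overlap, with 3 letter D cells inside the CP range. With the mean of its probe sets Mapt differed by 1.32, below the size rule. Of 14 glycolysis genes the median was 0.66, and Ldha, lactate dehydrogenase A, was higher by 2.09 with overlap. BAF chromatin remodelling subunits had a median of −0.04 over 17, with Smarca2 (BRM), an ATPase subunit, higher by 2.35 without overlap (0.95 with the mean of its probe sets, below the size rule). Neuronal RNA-binding genes had a median of −0.20 over 19, Notch genes −0.39 over 9, calcium and kinase signalling genes 0.38 over 15 and S phase genes −0.87 over 9. The median was 0.34 over 8 immediate early and stress genes, −0.08 over 8 apoptosis genes and −0.63 over 6 G1 cyclins and CDK inhibitors. List members at the floor throughout 1 group, such as Rfc4, Cdkn1c and Cabp7, had to differ, so these medians are only descriptions.

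**Figure D4:**
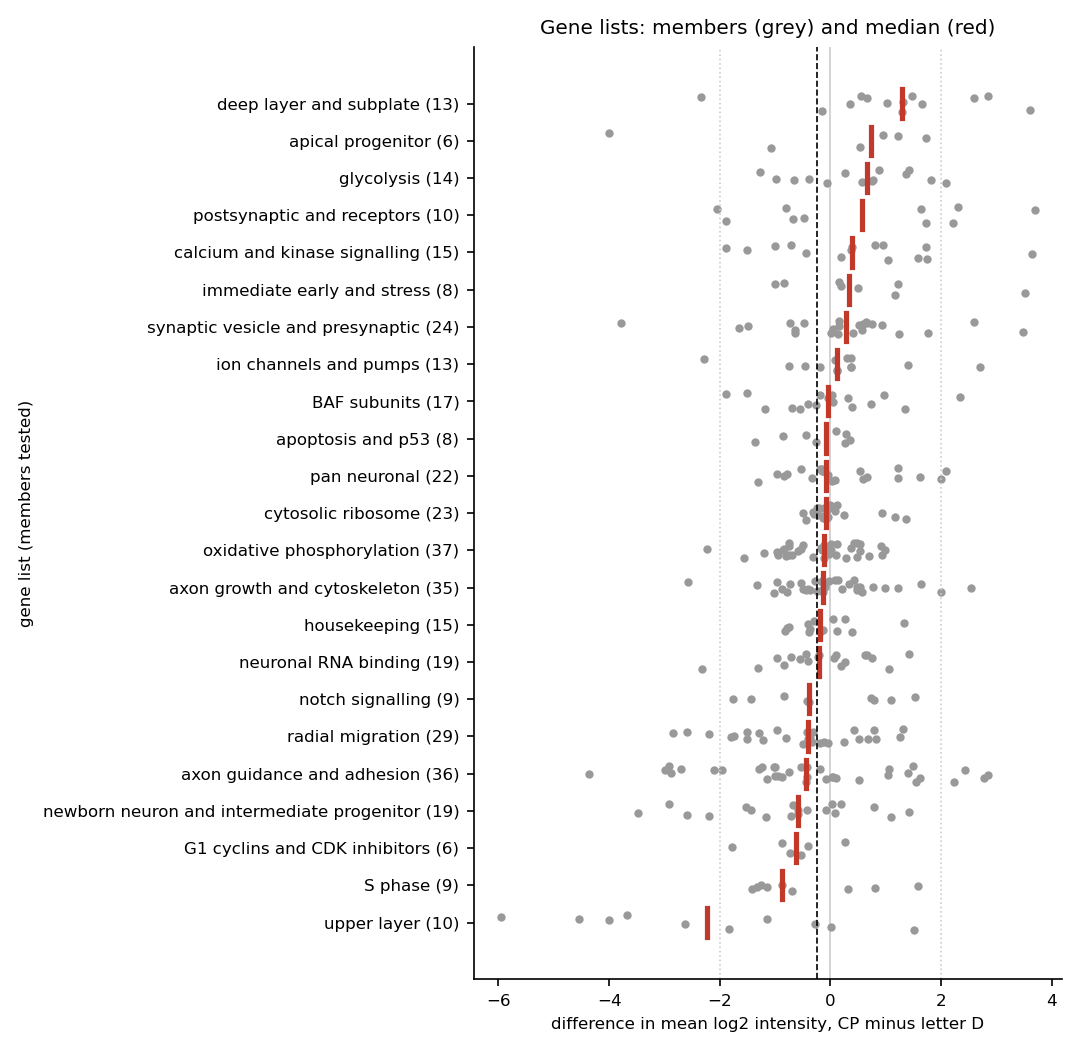
Difference in mean log2 intensity, CP minus letter D (x axis), of the tested members of each gene list with at least 5 tested (grey points) and the list median (red bar), with the median of all genes tested dashed and differences of 2 log2 units dotted. The deep-layer list has the highest median, 1.29, and the upper-layer list the lowest, −2.23.

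The 3 CP cells also differed among themselves. Pearson's r over the 5917 tested genes, given as a description, was 0.466 to 0.484 between CP cells, 0.391 to 0.446 between a CP and a letter D cell and 0.396 to 0.477 between letter D cells. E-12B held the most genes and had 331 genes at least 3 log2 units above both other CP cells, against 128 in E-19F and 187 in E-19J. E-19F had 155 genes at least 3 units below both other CP cells, against 50 in E-12B and 110 in E-19J. These gaps sit beside the trimmed means of 76.1, 50.1 and 55.6, and the part of signal strength in them was not tested.

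Some genes, chosen after their values were seen, were missing from 1 CP cell and present in the rest. Nop10, of the telomerase and small nucleolar RNA complex, was at the floor in E-12B and at 11.26 and 11.54 in the other CP cells, with letter D cells at 9.07, 10.53 and 11.51. Sf1, a splicing factor gene, was at the floor in E-19F and at 11.88 and 11.59 in the others, with letter D cells at 11.12, 11.77 and 11.91. Hmgcs1, of cholesterol synthesis, was at the floor in E-19J and at 10.83 and 10.60 in the others, with letter D cells at 10.92, 11.71 and 12.21. Hmgcs1 is among the 45 genes lower in CP, of which 13 were at the floor in all 3 CP cells.

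The other 59 VZ/SVZ cells, letters A, B, C and X, were not compared in the rule. They did have a part in it, since the floor and each gene's probe set were chosen over all 69 cells. Of the 45 genes lower in CP, 23 had a letter D mean at least 1 log2 unit above the mean of those 59 cells, 20 were within 1 unit of it and 2 were lower than it by at least 1. The rule required all 7 letter D cells to be above the floor for these genes, so a high letter D mean is partly built in. The same shares over all genes tested were not counted. Syt4 averaged 9.65 in letter D cells and 6.59 in the other 59, where 13 cells held it, and Shb averaged 9.20 and 6.23. Pou3f3, Pantr1 and Cnn3 belong to the second kind: all 59 cells held them, at means of 12.15, 11.60 and 11.98, against CP means of 5.88, 5.88 and 8.50.

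Of the 43 genes higher in CP, 24 had a CP mean at least 2 log2 units above that of the other 59 cells, and 12 were above the floor in at most 5 of them. A high CP mean and a low letter D mean are partly built in by the rule. Here too the shares over all genes tested were not counted. Hs3st4 was above the floor in 0 of the 59, and Lrfn5, Cabp7 and Ndrg1 in 1 each. Sybu differed: 31 of the 59 held it, with a mean of 9.72 over the 7 letter A cells, against 5.88 in all letter D cells. Of the 43, 13 were likewise at least 1 unit lower in letter D cells than in the other 59. Fezf2 averaged 11.72 in CP, 9.14 in letter D and 9.77 in letter C cells, and Bcl11b 11.11, 8.27 and 6.73.

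**Figure D5:**
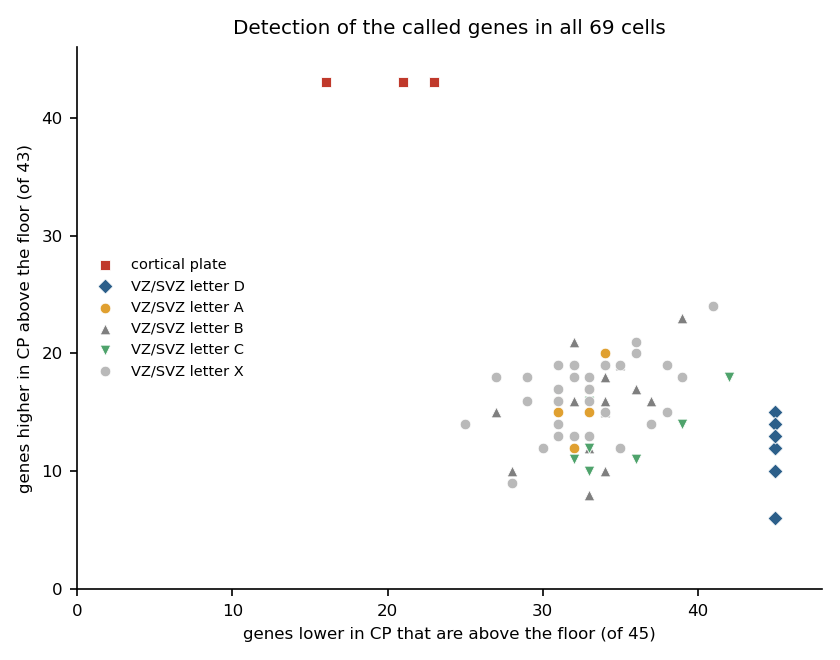
For each of the 69 cells, the number of the 45 genes lower in CP (x axis) and of the 43 genes higher in CP (y axis) that were above the floor, by region and title letter. CP and letter D positions follow from how the genes were chosen, while the 59 other cells had 25 to 42 of the genes lower in CP and 8 to 24 of those higher in CP.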

How the data were processed

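Single-cell expression was measured on Affymetrix arrays. The deposited values are linear probe set intensities made by the authors with MAS5, per the submitters' processing notes, which give no version; the sources used here do not state the scaling. No detection calls were used. Of 45101 probe sets, 34958 have 1 gene in the platform annotation, 932 several and 9211 none. Each of 18194 genes was read from its single-gene probe set with the highest mean log2 intensity over 69 cells.

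Intensities under the dip between the 2 modes of all log2 values were set to it. Means, SDs over cells and differences, CP minus letter D, were computed on log2 values in Python 3.11.15 with numpy and pandas (2.4.6 and 2.3.3), and checked on simulated data. "At least" folds set the brighter group's mean over the floor. Genes were named by rule: the 15 largest differences that met both criteria in each direction, up to 5 tested members with the largest differences of each of 32 lists, and 14 marker genes, with Otx1, Sox11, Neurog2, Cux1, Cux2, Pou3f2, Plxnd1, Nop10, Sf1, Hmgcs1, Vim, Ptprz1, Fabp7 and Cdc20 added after their values were seen. The comparison, the lists (784 genes, 60 not analysed here) and the rules were chosen with earlier results of these data known. Array number limits precision. The floor, the scaling, the probe sets, the filter, the size rule and the cells were varied.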

Additional observations from a re-analysis of the deposited data

Results flagged for a closer look

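Among 135 named and tested genes, 19 had 1 letter D cell that lay far from the other 6 relative to the group's range. For normally distributed values without ties, the cutoff used flags about 1 of 20 groups. The rate for floored values was not computed, so the 19 cannot be set against it. Most were genes seen in a single letter D cell or missing from a single one, where ties at the floor make the gap large. A single letter D cell stood highest for Atp2b2 (D-18F, 9.68), Camk1d (D-8K, 8.96), Homer1 (D-18L, 8.18), Kcnd2 (D-18C, 9.12), Lrfn5 (D-18F, 7.21), Nova2 (D-18L, 7.48), Pfkp (D-9B, 6.90), Prkar1b (D-18D, 9.41), Slbp (D-18F, 8.96), Vcan (D-9B, 7.2) and Xist (D-9B, 12.15). A single one stood lowest for Rhno1 (D-18L, 6.94) and Scg5 (D-9B, 6.77). At the floor of 5.88 alone were D-9B for Dlg3, D-18O for Klc1, D-18D for Ppp3cb, D-18F for Sdha and Sun1, and D-18L for Ss18l1.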

How the results depend on the processing

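Counts of genes higher and lower in CP (43 and 45) moved with most choices. They were 85 and 77 with a floor of intensity 6.26, the 95% quantile of TrpnX control values, and 86 genes were lower with no floor. Scaling gave 79 higher with a common trimmed mean, 83 with quantile normalization and 72 with the lys spike. The mean of all probe sets gave 19 and 24. A filter of at least 5 of 10 cells gave 20 higher. A size of at least 1 log2 unit gave 73 lower, and of at least 3 gave 9 and 18. With only the 5 letter D cells of title number 18 they were 72 and 75. Leaving out 1 CP cell gave 44 to 95 higher and 66 to 125 lower, and leaving out 1 letter D cell 49 to 54 and 56 to 71. Fewer cells overlap less often, but what moved these counts was not tested. An alternative chosen after seeing the data set CP against D-9B alone, the letter D cell with Xist, and gave 388 and 937, since 1 cell rarely overlaps. Of the 43 and 45 genes, 33 and 40 met the rule there too. This is largely built in, because those genes were chosen for no overlap with any letter D cell, D-9B included. Against D-9B alone, Mapt turned to −0.24, Dlg3 to 1.54 and Xist to −0.98. D-9B stood apart from the other letter D cells for Dlg3 and Xist. For Mapt it read 10.16, near D-18D at 10.40 and D-18L at 10.09. Every other named gene past the size rule, and the medians of both layer lists, kept their sign in each alternative that gave a value. The deep-layer median ranged from 0.54 to 1.66 and the upper-layer median from −6.67 to −0.91. No paired analysis was possible because the labels give the cells no shared replicate numbers. With 3 CP cells from an unknown number of embryos, and the spike RNA at 5 copies above the floor in 1 of the 10 cells, genes of low copy number can be missed.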
